A study of Mus musculus with 29 samples.

Results

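Replication-dependent histone genes were read from a count table of mouse ovary RNA. The members were all rows whose gene symbol, in the older mouse nomenclature, begins with Hist1h, Hist2h, Hist3h or Hist4h. There were 68 such genes among 51912 gene IDs: 6 of the linker histone H1, 20 of H2A, 17 of H2B, 12 of H3 and 13 of H4. Of these, 65 are annotated as protein coding and 3 as pseudogenes (Hist1h2aj, Hist1h2al and Hist3h2bb-ps). A further 2 genes that the rule would take, Hist1h2bm and Hist1h2bh, had no row in the table and were not analysed here.

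The study compared ovaries of wild-type mice with ovaries of mice that lack Cdkn1b (Cdkn1b -/-, called null here), to ask how regulation of the cell cycle bears on the development of the ovary. Cdkn1b encodes p27Kip1, an inhibitor of the cyclin-dependent kinases that drive entry into S phase. Fetal ovaries were taken at day 13.5 (E13.5) and, near birth, at day 18.5 of gestation (E18.5). Pups gave ovaries at 8 days after birth (PND8), and adults at 12 weeks. The 29 libraries formed 8 groups: 4 wild-type libraries at each age, 4 null libraries at E18.5, and 3 null libraries at each of the other ages. All were whole ovaries dissociated with papain before total RNA was extracted. The labels name no Cre or transgene, do not say how the null allele was made, and do not say whether replicates were separate animals, so p-values measure the spread between these samples. Each library is a mixture of cell types, and in such bulk RNA fewer cells of a type and less RNA per cell cannot be told apart.

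Histone proteins package DNA into nucleosomes: H2A, H2B, H3 and H4 form the core, and H1 binds the linker DNA. The replication-dependent genes supply new histones while DNA is copied, and most of their mRNAs carry no poly(A) tail but end just after a short conserved stem-loop, which the stem-loop binding protein Slbp holds. Other histones, called replacement variants here, are encoded outside the clusters, and most come from ordinary polyadenylated mRNAs. Some cluster genes, among them Hist1h1c, Hist1h2bc and Hist2h2be, are known to make polyadenylated mRNA as well in differentiated cells.

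The members lie in 4 places of the mouse genome (GENCODE M21, GRCm38): 54 on chromosome 13, 10 on chromosome 3, 3 on chromosome 11 and 1 on chromosome 6. The stem-loop was searched on the sense strand of the annotated transcripts as 16 letters in a row: GGNNC, then TTTT, then NAGNNCC. They stood in 124 of 141767 transcripts (0.0875%), from 89 of 55450 genes. Where a gene has several transcript models, the one that continues furthest past the letters was used. In 20 members it ended within 60 bases of the stem-loop, in 22 it ran further, and 26 members had no model with these letters. Models without the letters ranged from short, as in Hist1h4k (312 bases) and Hist1h3i (411), to long, as in Hist2h2be (2620). Whether the mRNA itself or only a short model lacks the letters was not tested. The stem-loops of the genes on which the results turn are printed because the transcript end is later used to group the members. Capitals mark the stem-loop, with up to 5 annotated bases on each side.

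Hist1h2ap: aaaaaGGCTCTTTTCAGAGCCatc

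Hist1h2ao: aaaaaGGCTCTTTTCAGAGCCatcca

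Hist1h2ag: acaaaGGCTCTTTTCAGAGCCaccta

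Hist1h2ae: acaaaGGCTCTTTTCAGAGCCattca

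Hist3h2ba: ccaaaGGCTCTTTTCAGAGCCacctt

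Hist1h1c: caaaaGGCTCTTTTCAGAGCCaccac

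Hist1h4i: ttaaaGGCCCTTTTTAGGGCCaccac

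The first 6 carry the same 16 letters, and Hist1h4i, the H4 gene with the highest level, carries others. After the stem-loop the annotated model continued for 3 bases in Hist1h2ap, 31 in Hist1h2ao and 23 in Hist1h2ag. It continued for 151 bases in Hist1h2ae, 169 in Hist3h2ba, 330 in Hist1h4i and 840 in Hist1h1c.

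At the other end of the genes, promoters were taken from RefSeq (GRCm38.p6, 250 bases before to 50 after the start), where 59 members had an entry, 60 promoters in all. The TATA letters TATAAA, on either strand, were in 35 of the 60 (58.3%), against 13.6% of 32851 promoters in the table. CCAAT was in 51 (85.0%, against 37.4%): in every H1, H2A, H2B and H3 promoter, but in 3 of 12 H4 promoters. The octamer ATTTGCAT was in 13 (21.7%, against 1.74%), 7 of 17 H2A and 6 of 15 H2B promoters, and in no promoter of the other families. In 13 places an H2A and an H2B gene stood head to head, with starts 172 to 305 bases apart. The whole space between Hist1h2ae and Hist1h2bg is 175 bases and serves as an example, because these neighbours later differ in direction. The Hist3h2ba promoter is shown beside it as that of a gene with no such neighbour within 500 bases. Capitals mark the TATA, CCAAT and octamer letters on either strand.

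Hist1h2ae, chr13:23571221-23571395, minus strand: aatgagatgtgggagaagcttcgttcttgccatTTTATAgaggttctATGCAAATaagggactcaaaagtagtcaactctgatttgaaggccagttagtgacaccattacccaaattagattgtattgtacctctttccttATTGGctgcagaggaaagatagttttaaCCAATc

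Hist3h2ba, chr11:58948661-58948910, plus strand: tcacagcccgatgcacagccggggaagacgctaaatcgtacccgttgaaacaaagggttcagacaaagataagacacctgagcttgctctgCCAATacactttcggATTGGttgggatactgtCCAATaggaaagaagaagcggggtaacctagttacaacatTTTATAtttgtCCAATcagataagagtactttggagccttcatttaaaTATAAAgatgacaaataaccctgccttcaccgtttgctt

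Near-identical copies limit what a single member's value means. The deposited counts are estimates in which a read that fits several genes is divided among them. In the median member 45.9% of all 75-base windows of the transcript also stood in another annotated gene, and 32 of the 68 members shared over 50% of their windows. The family medians were 71.5% in H2A, 59.0% in H3, 47.4% in H2B, 24.6% in H4 and 0.73% in H1. Hist1h2ap (13:21833026-21833507, minus strand) and Hist1h2ao (13:21810465-21810944, plus strand) share 92.6% and 93.1% of their windows with each other. Hist1h2ai, Hist1h2ag and Hist1h3i shared 89.3%, 77.6% and 78.3%, and Hist2h2aa1 and Hist2h3b shared all of theirs, so their single values are uncertain. Hist1h2ae (34.4%), Hist1h2bc (27.1%), Hist3h2ba (13.9%), Hist1h1c (6.66%) and Hist2h2be (0.00%) are more distinct.

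Libraries held 14.1 to 48.2 M counts each. The floor, 3 counts, equals 0.0622 to 0.213 CPM (counts per 1000000 counts of a library) and covers counting error only. Between 48 and 60 of the 68 members had a mean above the floor in a group, and 1 to 6 were listed at 0 in every library of a group. Cdkn1b itself was lower in every null library than in any wild-type library of its age. Its mean went from 22.9 CPM in wild type to 4.50 in null at E13.5, from 103 to 12.5 at E18.5 and from 148 to 71.5 at PND8, and it fell in each (edgeR adjusted p = 0.0114, 1.12e-05 and 0.0216). The PND8 call of Cdkn1b was lost without null replicate 3 or 4, and in a fit of all 8 groups (edgeR adjusted p = 0.117, 0.0964 and 0.106). At 12 weeks the means were 185.1 and 51.3 CPM and the test was not passed (edgeR adjusted p = 0.211). Ovarian markers were present: the granulosa list summed to 157.9 CPM or more in every library. Germ cell markers summed to 382.5 CPM or more in every fetal library, but at 12 weeks to 4.12 to 5.20 CPM in null and 5.74 to 66.4 in wild type. In wild-type replicate 3 at E13.5, haemoglobin genes took 19.0% of counts.

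The mean summed level of the members was highest at E13.5 and lower at each later age, and H2A was the largest family in all 8 groups. The level of all 68 genes in wild type was 777 ± 77.2 CPM (SD, n = 4) at E13.5 and 421 ± 67.5 near birth at E18.5. It was 231 ± 20.5 CPM in pups and 205 ± 24.1 in adults. In the null it was 855 ± 124 CPM (n = 3), 662 ± 36.0 (n = 4), 211 ± 36.3 (n = 3) and 178 ± 41.9 (n = 3). The genotypes overlapped at E13.5, PND8 and 12 weeks, and at E18.5 every null library lay above every wild-type library. The totals at PND8 and 12 weeks overlapped in both genotypes. In wild type the near copies Hist1h2ao and Hist1h2ap, summed, followed the same course: 607, 206, 106 and 59.4 CPM by age. The remaining H2A genes did not, at 75.1, 99.9, 23.3 and 25.4 CPM. Nor did H1 (22.1, 26.5, 46.7 and 59.8), H2B (57.6, 74.1, 34.8 and 49.9), H3 (6.44, 4.09, 7.52 and 3.72) or H4 (9.23, 11.1, 12.6 and 6.77). No test was made on sums.

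**Figure D1:**
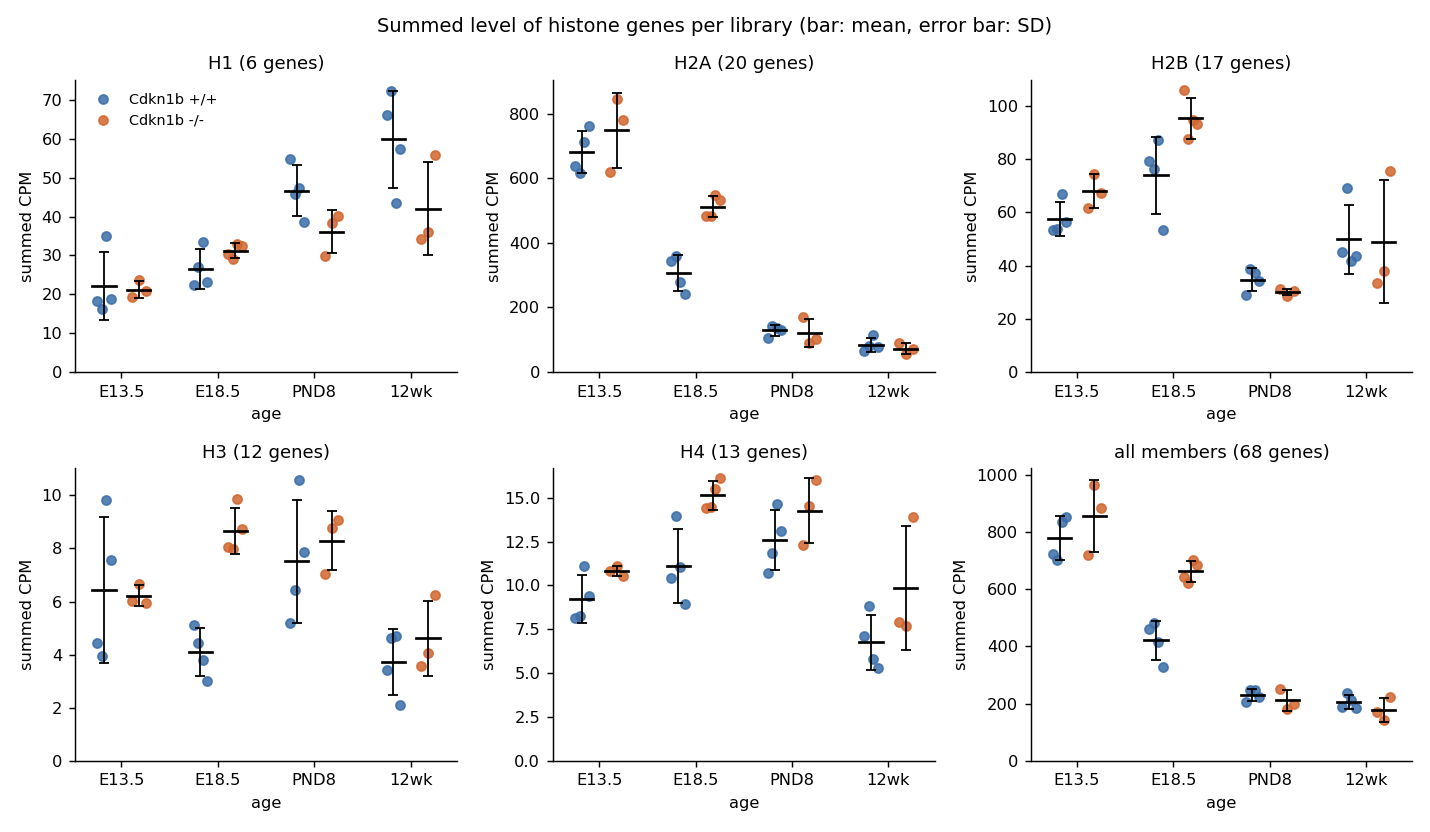
Summed level of each histone family in CPM (y axis, from 0) in each library by age (x axis), wild type in blue and null in orange, with the mean as a bar and the SD as an error bar. The null points stand above all wild-type points at E18.5 in H2A, H3 and the total, and narrowly in H2B and H4. From E18.5 to PND8 in wild type, H2A and H2B are lower and H1 is higher.

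The level per kilobase of transcript, which lets genes be compared, was uneven. Averaged over the 8 groups, Hist1h2ap, an H2A gene, reached 524 CPM per kb and its near copy Hist1h2ao 52.6. That order held before birth and was the opposite after it, in both genotypes: Hist1h2ao and Hist1h2ap were at 141 and 72.6 CPM per kb at PND8 in null and at 80.8 and 42.8 at 12 weeks in wild type. Hist1h2bc had 23.3 CPM per kb, Hist1h1c 16.8 and Hist3h2a 13.7. The H4 gene Hist1h4i, at 5.71 CPM per kb, was the highest of its family in each of the 8 groups. The highest H3 gene differed between groups: Hist2h3b averaged 1.59 CPM per kb, but at PND8 in wild type it was at 0.65, under Hist1h3c at 1.73. Summed H3 and H4 levels, 3.72 to 15.1 CPM in group means, were thus far below H2A.

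At E18.5 the summed histone mRNA level was 1.57-fold higher in null. Of the 36 members that passed the filter on low counts, 5 rose and 0 fell (edgeR quasi-likelihood test, Benjamini-Hochberg adjusted p under 0.05, called here), where 4.99% of all 16322 tested genes were called, 3.32% higher and 1.67% lower. They were 3 H2A genes, 1 H2B gene and 1 H3 gene. That H3 gene, Hist1h3i, had 2.0 to 5.04 counts per wild-type library and passed the filter only through the null group. The groups did not overlap in 13 of the 36, against 14.7% of all tested genes, and the median log2 fold change was 0.50, against -0.04 for all tested genes. Members that passed the filter only through the group where they are high had to differ, so these are descriptions only. Without null replicate 3 the count was 3. DESeq2 called 7 members, all higher (10.5% of all genes by that tool): it added Hist1h2ai, Hist1h2bj and Hist2h3b (DESeq2 adjusted p = 0.00284, 0.0468 and 0.0209) and did not call Hist1h3i. H1 and H4 had 0 called of 4 and of 8.

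Hist1h2ap, the main H2A gene, was measured at 248, 233, 181 and 161 CPM in wild-type replicates 1 to 4 and at 389, 388, 461 and 442 CPM in null replicates 1 to 4. The highest wild-type library thus lay well under the lowest null library. It rose by a log2 fold change of 1.02 (SE 0.14, edgeR adjusted p = 0.00293). Hist1h2ao, its near copy, was listed at 0 in all 8 libraries of that age, so the sum of both equals Hist1h2ap.

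Hist1h2ae (13:23570517-23571220), an H2A gene whose annotated mRNA runs past the stem-loop, was at 6.06, 5.10, 3.93 and 3.82 CPM in wild type and at 11.0, 14.2, 13.9 and 16.8 CPM in null. All null values exceeded all wild-type values, with a log2 fold change of 1.56 (SE 0.21, edgeR adjusted p = 0.00261). Its head-to-head neighbour Hist1h2bg, an H2B gene, was at 0.261 to 0.757 CPM in wild type and 0.610 to 0.705 in null, which overlap. Hist1h2bg had a log2 fold change of 0.36 (SE 0.41, edgeR adjusted p = 0.642). Hist1h2ag (13:22042460-22042944) was at 2.20, 2.07, 1.86 and 1.295 CPM in wild type and 5.62, 6.78, 3.86 and 7.32 in null. Here too the groups were apart, by a log2 fold change of 1.64 (SE 0.28, edgeR adjusted p = 0.00795). Its head-to-head partner Hist1h2bj had a log2 fold change of 0.97 (SE 0.33), with groups that did not overlap, and was not called by edgeR (edgeR adjusted p = 0.113).

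Among H2B genes, Hist3h2ba (11:58948920-58949533) was at 6.81, 7.73, 7.47 and 5.19 CPM in wild type and 19.1, 13.5, 13.4 and 10.7 in null. Its groups were apart, with a log2 fold change of 1.05 (SE 0.21, edgeR adjusted p = 0.0183); without wild-type replicate 4 or null replicate 3 the adjusted p was 0.0566 or 0.0622. Hist1h2bc, the H2B gene with the highest level, had 28.3, 32.4, 40.2 and 20.6 CPM in wild type and 48.8, 39.3, 40.8 and 42.3 in null. Wild-type replicate 3 lay within the null range, and the log2 fold change of 0.49 was not called (SE 0.18, edgeR adjusted p = 0.147). Hist2h2be was at 23.1 to 35.7 CPM in wild type and 24.6 to 30.3 in null, which overlap.

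In H3, Hist1h3i was at 0.217, 0.102, 0.166 and 0.211 CPM in wild type, close to the floor, and at 0.530, 1.01, 0.962 and 0.771 in null. It was called (log2 fold change 2.21, SE 0.44, edgeR adjusted p = 0.0181), but it passed the filter only through the null group. That call was lost when any of wild-type replicate 3 or null replicates 2, 3 and 4 was left out, with edgeR adjusted p from 0.0587 to 0.0789. In a fit of all 8 groups, which share 1 estimate of the spread, the edgeR adjusted p was 0.205 for Hist1h3i and 0.0683 for Hist3h2ba. Hist2h3b, whose reads are all shared, was at 0.212 to 1.09 CPM in wild type and 1.58 to 2.17 in null; its log2 fold change of 1.44 was not called by edgeR (SE 0.43, edgeR adjusted p = 0.0792).

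No H4 or H1 gene was called. Hist1h4d, at 1.53 to 2.83 CPM in wild type and 3.18 to 3.73 in null, had a log2 fold change of 0.65 (SE 0.26, edgeR adjusted p = 0.168). Hist1h4h had one of 1.05 (SE 0.39, edgeR adjusted p = 0.147). The linker gene Hist1h1c was at 13.6, 16.6, 25.5 and 14.7 CPM in wild type and 19.4, 16.3, 18.3 and 18.0 in null, with overlapping groups. Hist1h1e, another somatic linker histone, had a log2 fold change of 0.62 (SE 0.27, edgeR adjusted p = 0.206). The only members at an unadjusted p under 0.05 with a lower level in null were Hist3h2a (-0.34, SE 0.13, edgeR adjusted p = 0.163) and Hist2h2aa1 (-1.38, SE 0.54, edgeR adjusted p = 0.178), against 15 with a higher level. Over all 16322 tested genes, 3615 had an unadjusted p under 0.05 in either direction.

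**Figure D2:**
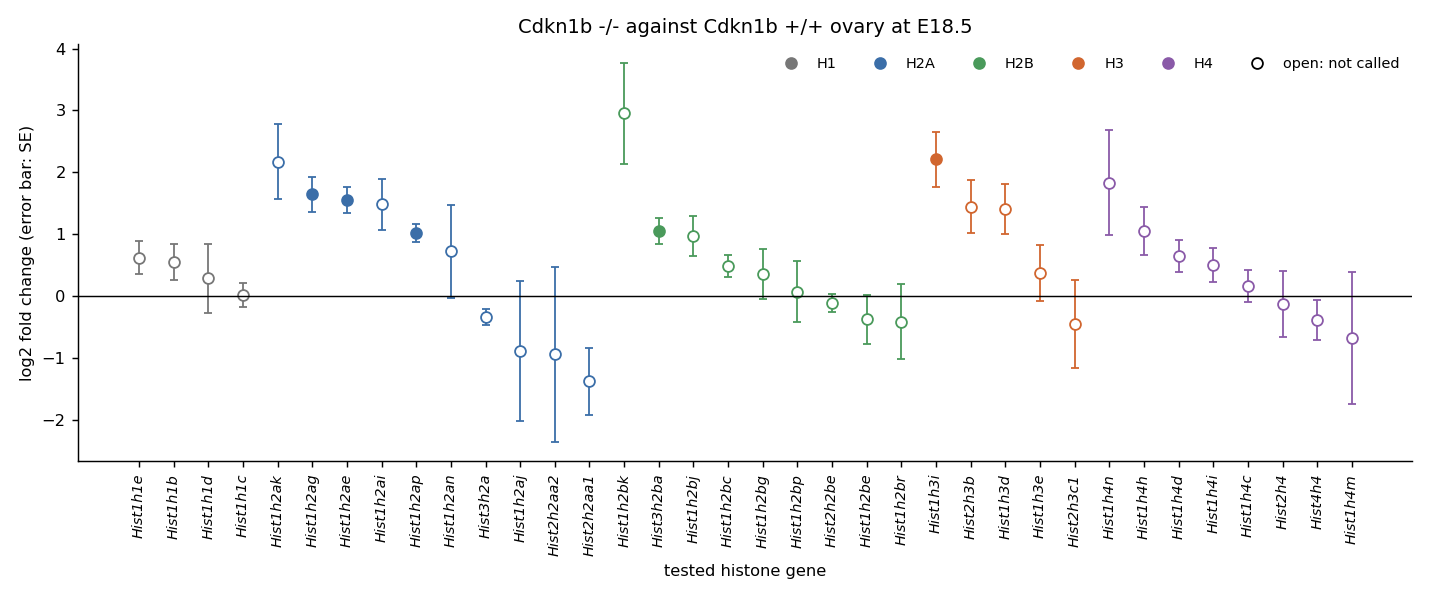
Log2 fold change, null against wild type at E18.5, of the 36 tested histone genes (x axis, by family), with the standard error as an error bar. Filled points are the 5 called genes, all above 0, of which Hist1h3i passed the filter only through the null group. Open points were not called, and the points of H1 lie between 0.02 and 0.62.

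As sums of all members at E18.5, H2A was at 344, 359, 279 and 240 CPM in wild type and 484, 484, 548 and 532 in null, a log2 ratio of means of 0.74. H3 was at 5.13, 4.42, 3.79 and 3.02 CPM against 8.05, 7.96, 9.86 and 8.75, a log2 ratio of 1.08. The log2 ratio was 0.45 for H4 and 0.36 for H2B, and 0.24 for H1, where the groups overlapped. The groups of H4 and H2B did not overlap but nearly touched. H4 was at 8.95 to 13.97 CPM in wild type and 14.43 to 16.1 in null, and H2B at 53.5 to 87.25 and 87.56 to 106. The H2A difference depended on Hist1h2ap. Leaving it and Hist1h2ao out, the other 18 H2A genes summed to 99.9 ± 19.4 CPM in wild type (SD, n = 4) and 91.9 ± 4.16 in null (n = 4), a log2 ratio of -0.12 with overlapping groups. The sum of all members without those genes had a log2 ratio of 0.17.

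**Figure D3:**
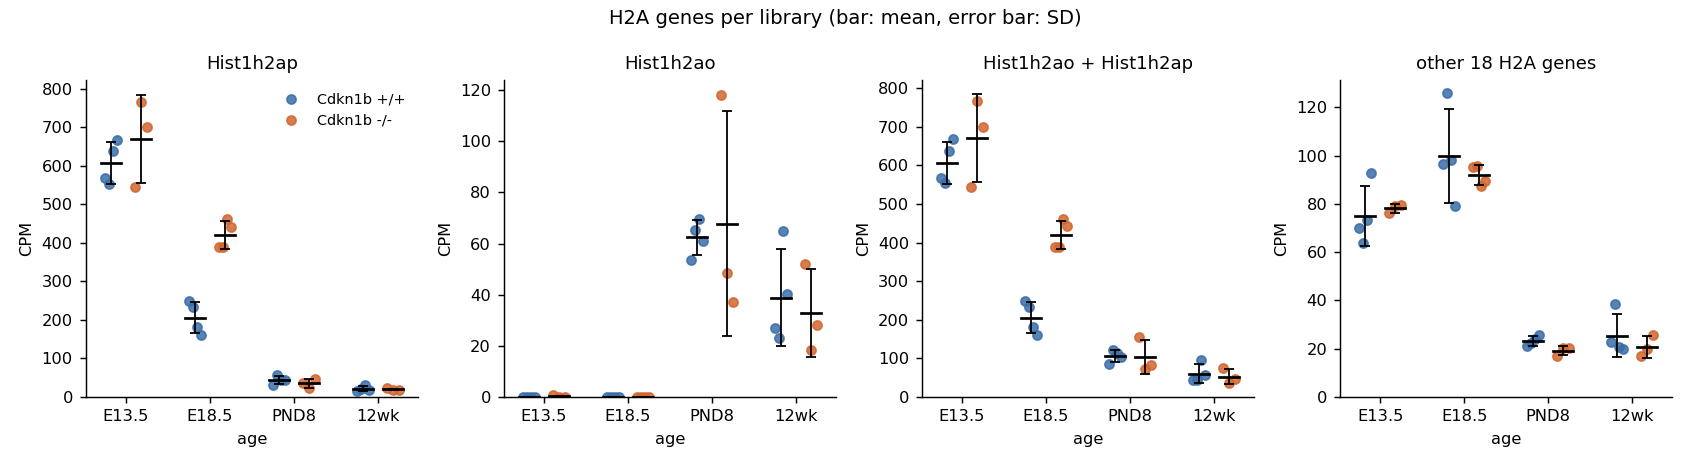
CPM of Hist1h2ap, of Hist1h2ao, of both summed, and of the other 18 H2A genes summed (y axes, each from 0) in each library by age, wild type in blue and null in orange, bar for the mean and error bar for the SD. Hist1h2ao is at or near 0 before birth and at 37.0 to 118 CPM at PND8, while the other H2A genes overlap between genotypes at E18.5.

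Grouped by transcript end, the members whose model ends at the stem-loop summed to 275, 273, 209 and 183 CPM in wild type at E18.5 and to 416, 417, 484 and 471 in null, with no overlap and a log2 ratio of 0.93. Those whose model runs past it summed to 114 ± 16.5 and 124 ± 4.91 CPM (log2 ratio 0.12), and those without the letters to 71.9 ± 14.1 and 90.9 ± 5.32 (0.34), both overlapping. Hist1h2ap belongs to the first class and made up most of it, at 205.6 ± 41.2 CPM in wild type and 419.9 ± 37.3 in null. The class means were 235.0 and 446.9 CPM. Without Hist1h2ap, the rest of the class overlapped between the genotypes. Of the called genes, Hist1h2ap and Hist1h2ag end at the stem-loop, Hist1h2ae and Hist3h2ba run past it, and the model of Hist1h3i lacks the letters. At PND8 the class running past the stem-loop was lower in null, 59.9 ± 7.51 CPM (n = 3) against 74.0 ± 5.54 (n = 4), and its groups nearly touched, 51.6 to 66.2 and 66.5 to 79.8 CPM. How the libraries treated RNA without a poly(A) tail is not given in the sources used here. A list of 19 known RNAs without such tails summed to 10.8 ± 3.71 CPM in wild type and 12.2 ± 2.49 in null at E18.5, and to 42.2 ± 18.1 and 43.5 ± 27.8 at PND8. Its part in the age differences of histone genes was not tested.

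**Figure D4:**
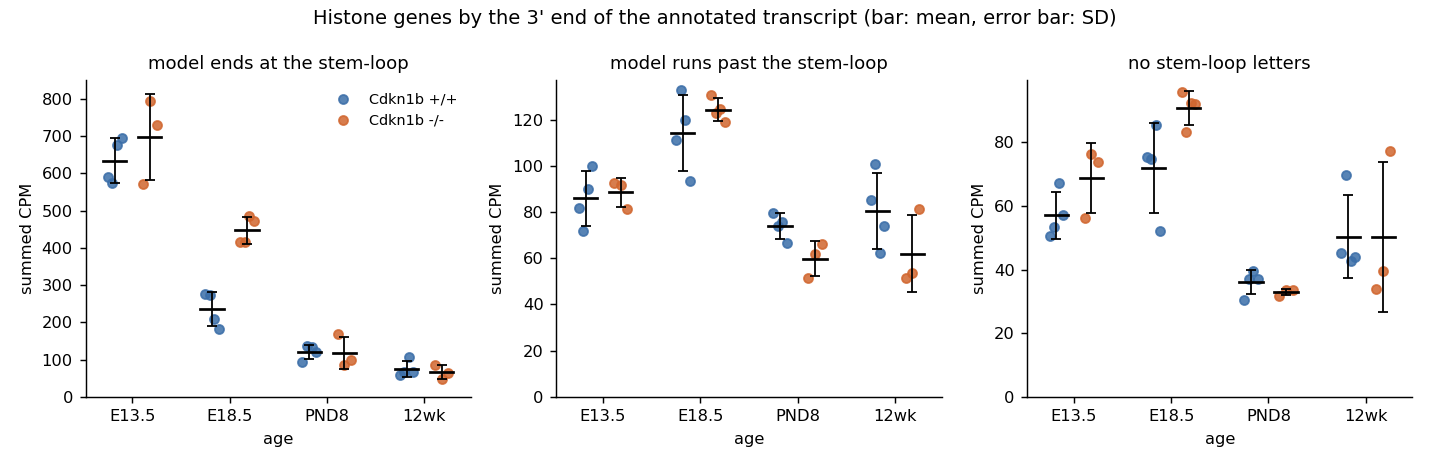
Summed CPM (y axis, from 0) of histone genes whose annotated transcript ends at the stem-loop, runs past it, or lacks its letters, in each library by age, wild type in blue and null in orange, bar for the mean and error bar for the SD. The first class separates the genotypes at E18.5, where Hist1h2ap makes up most of its level.

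Genes that work with histones were also compared at E18.5, on lists drawn up with earlier results known. Of 18 tested genes of histone mRNA production and processing, 5 rose and 0 fell in the E18.5 null. Slbp had 298 to 373 CPM in wild type and 437 to 532 in null, and rose by 0.55 on the log2 scale (SE 0.10, edgeR adjusted p = 0.0142). Eri1, an exonuclease that trims the stem-loop end, rose by 0.67 (SE 0.12, edgeR adjusted p = 0.00842). Npat, the coactivator of histone genes, had a log2 fold change of 0.40 and missed the threshold (SE 0.11, edgeR adjusted p = 0.0588). Npat was called by DESeq2 (adjusted p = 0.0108), and by edgeR in a fit of all 8 groups or with no filter (edgeR adjusted p = 0.0245 and 0.0400). Of 22 chaperone and assembly genes, 10 rose and 0 fell, among them the CAF-1 subunit Chaf1b, by 1.36 (SE 0.13, edgeR adjusted p = 0.000654), and the H3-H4 chaperone Asf1b, by 0.95 (SE 0.20, edgeR adjusted p = 0.0236). The call of Slbp was lost without null replicate 3 or 4 (edgeR adjusted p = 0.0705 and 0.0512), and that of Asf1b without wild-type replicate 3 or null replicate 3 or 4 (edgeR adjusted p = 0.0605, 0.0880 and 0.0746).

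Among replacement variants 5 of 11 tested genes rose and 0 fell. H2afz, which encodes H2A.Z, was at 453 to 730 CPM in wild type and 991 to 1158 in null; it rose by 0.88 (SE 0.15, edgeR adjusted p = 0.00728). H2afx, whose product is phosphorylated at DNA breaks, rose by 0.89 (SE 0.11, edgeR adjusted p = 0.00188). The H3.3 genes H3f3a and H3f3b and the linker H1f0 were not called (edgeR adjusted p = 0.325, 0.377 and 0.679).

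A list of 37 genes of DNA replication and S phase had 32 called higher and 0 lower at E18.5, with a median log2 fold change of 0.92. Their sum was 2654, 1939, 1985 and 1855 CPM in wild type and 4064, 3861, 4869 and 4406 in null, without overlap. Per 100 CPM of that list, the histone sum was 20.2 ± 3.44 CPM in wild type and 15.5 ± 0.75 in null at E18.5, and the values did not overlap: 17.4 to 24.8 against 14.4 to 16.1. Cell type markers also differed at that age. Steroidogenic markers summed to 156 to 268 CPM in wild type and 296 to 393 in null (1 of 5 called higher), but single markers differed in direction. Hsd3b1, Lhcgr and Cyp17a1 had log2 fold changes of 0.75, 0.81 and 0.22, and Cyp11a1 and Star of -0.08 and -0.52. Of the stromal markers, 2 of 7 were called lower. Germ cell markers overlapped as a sum (501 to 1372 and 383 to 811 CPM, 0 of 10 called). All 10 had a lower level in null, with log2 fold changes from -0.79 to -0.38, 3 at an unadjusted p under 0.05 (3615 of all 16322 tested genes). Sums of granulosa (1 of 7 called higher) and erythroid markers also overlapped. The part of these cell types in the histone differences was not tested.

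At the other ages edgeR called no member between the genotypes. At E13.5, 0 of 35 tested members were called by edgeR, where 0.00606% of all genes were called. DESeq2 also called 0 (background 0.339%). An unadjusted p under 0.05 was found for 576 of all 16508 tested genes and for 0 members. Hist1h2ap was at 554 to 668 CPM in wild type and 544 to 767 in null, which overlap. At PND8, 0 of 54 were called by edgeR and DESeq2 called 1 (background 0.349% by edgeR and 5.2% by DESeq2). An unadjusted p under 0.05 was found for 2662 of all 17785 tested genes and for 4 members. The 4 were all lower in null. Hist3h2a was at 13.0, 12.6, 11.2 and 13.3 CPM in wild type and 7.85, 7.92 and 9.17 in null, without overlap (log2 fold change -0.60, SE 0.13, edgeR adjusted p = 0.0922, DESeq2 adjusted p = 0.00165). Hist1h2bc was at 14.1 to 18.3 CPM in wild type and 10.6 to 12.7 in null (-0.44, SE 0.13, edgeR adjusted p = 0.177). Hist1h1c was at 29.3 to 49.3 CPM in wild type and 22.8 to 26.7 in null (-0.54, SE 0.19, edgeR adjusted p = 0.239). The last, Hist1h4n, named because it was the remaining one of the 4 after the values were seen, was listed at 0 in the 3 null libraries and 0.00 to 0.737 CPM in wild type.

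At 12 weeks, 0 of 39 members were called by edgeR and DESeq2 called 0 (background 0.0115% by edgeR and 1.65% by DESeq2). An unadjusted p under 0.05 was found for 1675 of all 17396 tested genes and for 1 member. That 1 gene, Hist1h3b, likewise named after its values were seen, was at 0.134 to 0.321 CPM in wild type and 0.520 to 0.745 in null (log2 fold change 1.45, SE 0.46, edgeR adjusted p = 0.425). All 5 family sums overlapped between the genotypes at E13.5, PND8 and 12 weeks, but some differed in mean by as much as at E18.5. At 12 weeks the H4 sum was 6.77 ± 1.56 CPM in wild type and 9.84 ± 3.53 in null, a log2 ratio of 0.54, or 0.21 without null replicate 4. The H1 sum was 59.8 ± 12.4 CPM in wild type and 42.0 ± 12.0 in null at that age, a log2 ratio of -0.51 that ran from -0.77 to -0.38 with each library left out in turn. At PND8 H1 was at 46.7 ± 6.67 and 36.1 ± 5.58 CPM, a ratio of -0.37.

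From E18.5 to PND8 the families differed in direction. In wild type the H2A sum went from 240 to 359 CPM down to 105, 144, 138 and 129, a log2 ratio of -1.24, and H2B from 53.5 to 87.3 CPM down to 28.9, 38.7, 37.4 and 34.3, a ratio of -1.09. The H1 sum went from 22.5, 26.9, 33.5 and 23.2 CPM up to 54.9, 45.9, 47.4 and 38.6, a ratio of 0.82. H3 was also higher (0.88), but its groups nearly touched, 3.02 to 5.13 and 5.20 to 10.6 CPM. H4 overlapped, with a ratio of 0.18 that became -0.11 when libraries were scaled by their totals alone. For all genes that scaling moved the median by -0.29 in wild type and -0.26 in null, and the directions of H1, H2A, H2B and H3 in wild type held under it.

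In the null, which started from a higher level, H2A went from 484 to 548 CPM at E18.5 down to 171, 91.3 and 103 at PND8 (log2 ratio -2.07) and H2B from 87.6 to 106 down to 31.1, 28.7 and 30.6 (-1.66). H1, H3 and H4 overlapped between these ages in the null, with ratios of 0.21, -0.06 and -0.08, and that of H1 was -0.06 under library totals alone. The S phase list summed to 1855 to 2654 CPM in wild type at E18.5 and 3348 to 4153 at PND8, higher without overlap. In the null it was 3861 to 4869 and 4125 to 4310, which overlap. Histone mRNA per 100 CPM of S phase genes was 6.18 ± 0.18 CPM in wild type and 4.99 ± 0.75 in null at PND8.

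**Figure D5:**
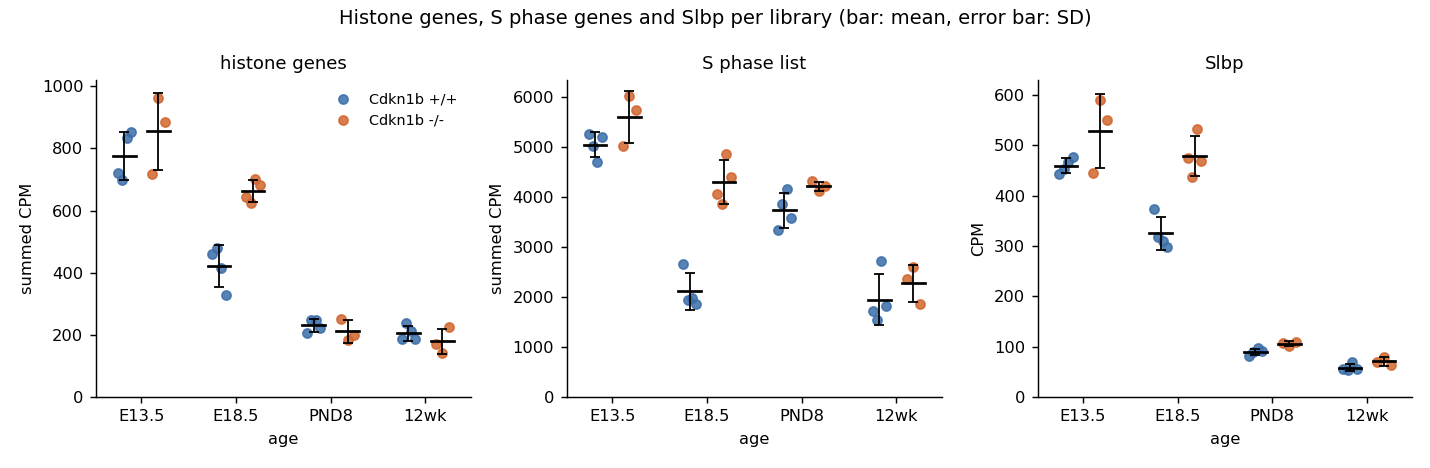
Summed CPM of all histone genes, summed CPM of the S phase list and CPM of Slbp (y axes, each from 0) in each library by age, wild type in blue and null in orange, bar for the mean and error bar for the SD. From E18.5 to PND8 in wild type the histone sum and Slbp are lower, while the S phase sum is higher.

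Per gene, 44 members were tested between these ages in wild type; 15 rose and 13 fell (37.6% and 36.9% of all genes, 74.6% in all, more than the members' own share). H1 had 3 higher and 0 lower of 5, H2A 3 and 6 of 11, H2B 3 and 4 of 10, H3 4 and 0 of 7 and H4 2 and 3 of 11. In the null, 49 were tested, 11 rose and 20 fell (38.9% and 38.5% of all genes, 77.4% in all). There H2A had 3 higher and 8 lower of 14 and H2B 2 and 7 of 11. In every comparison of ages, members that passed the filter only through the age where they are high had to differ. Among them here was Hist1h3b, with 0, 0, 2.75 and 0 counts in wild type at E18.5. Wild-type libraries held 17.3 to 20.9 M counts at E18.5 and 32.3 to 41.9 M at PND8. The counts of called members are thus descriptions only. The deposited table combines 2 projects by its header and does not say which library came from which, so age and project cannot be told apart. The same limit holds for the other age steps and for the comparisons of genotypes.

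Hist1h2ap fell from 161 to 248 CPM at E18.5 in wild type to 30.7, 55.7, 44.0 and 42.6 at PND8 (log2 fold change -2.33, SE 0.20, edgeR adjusted p = 2.3e-06). Hist1h2ao was listed at PND8 at 53.7, 65.4, 69.5 and 61.0 CPM after 0 in every E18.5 library. With both summed, the level was 106 ± 15.9 CPM, a log2 ratio of -0.96, a smaller difference than that of Hist1h2ap alone. In the 3 null libraries at PND8, Hist1h2ao was at 118, 48.3 and 37.0 CPM and Hist1h2ap at 36.1, 22.9 and 46.0. Before birth the table listed Hist1h2ao above 0 in 1 library only, null replicate 1 at E13.5 (0.534 CPM). Reads of these genes can hardly be told apart, and how the estimate divides them was not tested.

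More distinct genes also fell. Hist3h2a, an H2A gene on chromosome 11, was at 64.1, 78.3, 64.8 and 52.7 CPM in wild type at E18.5 and at 13.0, 12.6, 11.2 and 13.3 at PND8 (log2 fold change -2.46, SE 0.14, edgeR adjusted p = 2.16e-07). The fall was 2.70 in the null (SE 0.12, edgeR adjusted p = 2.47e-08). Its neighbour Hist3h2ba fell from 5.19 to 7.73 CPM to 0.557 to 1.25 (-3.17, SE 0.31, edgeR adjusted p = 6.27e-06). Hist2h2be, an H2B gene that shares none of its windows, fell from 23.1 to 35.7 CPM to 7.61 to 9.33 (-1.88, SE 0.15, edgeR adjusted p = 1.42e-06). Hist1h2bc fell by 1.02 in wild type (SE 0.19, edgeR adjusted p = 0.000722) and by 1.93 in the null (SE 0.11, edgeR adjusted p = 1.4e-07).

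The head-to-head neighbours Hist1h2ae and Hist1h2bg went opposite ways at this step. Hist1h2ae fell from 3.82 to 6.06 CPM to 0.332, 0.507, 0.833 and 0.720 (log2 fold change -3.03, SE 0.34, edgeR adjusted p = 1.58e-05). Hist1h2bg, on the other side of the 175 bases printed for it, rose from 0.459, 0.757, 0.549 and 0.261 CPM to 2.01, 4.51, 3.99 and 2.15 (2.57, SE 0.42, edgeR adjusted p = 0.000273). Neither pair of groups overlapped. The annotated mRNA of both runs past the stem-loop, by 151 and 155 bases. Hist1h2ae shares 34.4% and Hist1h2bg 47.4% of their windows with other genes. Hist1h2bg had only 6.25 to 14.79 counts per wild-type library at E18.5, so its single value is uncertain. How the estimate divides the shared reads at each age was not tested.

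The genes that rose included linker histones. Hist1h1c rose from 13.6, 16.6, 25.5 and 14.7 CPM to 49.3, 36.1, 29.7 and 29.3 in wild type (log2 fold change 0.96, SE 0.23, edgeR adjusted p = 0.00336), with no overlap, and by 0.41 in the null (SE 0.11, edgeR adjusted p = 0.00559). The null call was lost in a fit of all 8 groups (edgeR adjusted p = 0.126). It was not refitted under library totals alone, which moved the median of all genes by -0.26 in null. Its share of the wild-type H1 sum was 47.3% at the first age and 65.5% at the second, then 76.7% at PND8 and 92.3% at 12 weeks. Hist1h1d rose from 0.113 to 0.639 CPM to 1.40 to 3.93 (2.57, SE 0.48, edgeR adjusted p = 0.00064). Hist1h2af was listed at 0 in 3 of 4 wild-type libraries at E18.5 and was at 1.32 to 3.06 CPM at PND8 (edgeR adjusted p = 0.00102). Most of its windows (86.8%) are shared.

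Slbp fell from 325 ± 33.1 CPM at E18.5 to 89.7 ± 6.08 at PND8 in wild type, by a log2 fold change of -1.94 (SE 0.10, edgeR adjusted p = 1.5e-07). Of 37 S phase genes 24 rose and 5 fell in the same step, of 22 chaperone genes 12 rose and 7 fell, and of 18 processing genes 8 rose and 3 fell. Replacement variants had 4 higher and 6 lower of 12. Over all genes tested in wild type, 37.6% rose and 36.9% fell in this step. H2afz fell by 1.73 (SE 0.17, edgeR adjusted p = 7.76e-06), H3f3b by 2.30 (SE 0.13, edgeR adjusted p = 2.26e-07) and the differentiation-linked linker H1f0 by 2.45 (SE 0.18, edgeR adjusted p = 8.41e-07). Markers of cell types moved much between these ages: granulosa from 493 to 663 CPM to 3184 to 3927, germ cell from 501 to 1372 CPM to 103 to 378, and erythroid from 1584 to 32940 CPM to 7.85 to 194 in wild type. Their part in the histone changes was not tested.

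Whether the genotype effect itself differed between E18.5 and PND8 was tested as an interaction over both ages. Of 59 members 0 were called by edgeR and DESeq2 called 4, all lower at PND8 (0.835% of all genes were called by edgeR and 3.27% by DESeq2). An unadjusted p under 0.05 was found for 2560 of all 18687 tested genes and for 12 members. Hist1h2ap came closest, with a difference in log2 fold change of -1.32 (SE 0.30, edgeR adjusted p = 0.0534); without E18.5 wild-type replicate 1 or 2, PND8 wild-type replicate 1 or PND8 null replicate 4, the edgeR adjusted p was 0.0384, 0.0345, 0.0290 or 0.0393. In the other 11 of 15 such runs it was not called, with adjusted p up to 0.135, and the difference ran from -1.58 to -1.10 over all 15. DESeq2 and a fit of all 8 groups called Hist1h2ap (adjusted p = 0.00227 and 0.0456). Hist1h2bc differed by -0.91 (SE 0.24, edgeR adjusted p = 0.0988, or 0.0391 without E18.5 wild-type replicate 3), Hist1h2ae by -1.40 (SE 0.50, edgeR adjusted p = 0.230) and Hist1h2ag by -1.71 (SE 0.54, edgeR adjusted p = 0.175). DESeq2 also called Hist1h2bc and Hist1h2ag (adjusted p = 0.0164 and 0.0448). On the S phase list 17 of the genes were called lower and 0 higher.

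Between E13.5 and E18.5 in wild type, 30 members were tested; 4 rose and 6 fell (16.6% and 17.5% of all genes, 34.0% in all). Leaving out E13.5 replicate 3, with its haemoglobin reads, gave 12 called, and leaving out E18.5 replicate 2 gave 6. Hist1h2ap fell from 568, 554, 638 and 668 CPM to 248, 233, 181 and 161, with no overlap (log2 fold change -1.57, SE 0.16, edgeR adjusted p = 9.2e-05). Hist1h2ae fell by 1.42 (SE 0.22, edgeR adjusted p = 0.000975) and Hist1h2ag by 1.73 (SE 0.31, edgeR adjusted p = 0.00185). This comparison shares the E18.5 wild-type libraries with that of the genotypes. Hist2h2be rose from 13.98, 16.5, 9.17 and 10.1 CPM to 35.7, 29.4, 31.4 and 23.1 (1.26, SE 0.22, edgeR adjusted p = 0.00188), and Hist3h2a rose by 0.83 (SE 0.20, edgeR adjusted p = 0.00869). Of 37 S phase genes, 33 fell and 0 rose.

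From PND8 to 12 weeks in wild type, 4 of 40 tested members rose and 8 fell (16.1% and 14.3% of all genes, 30.5% in all). Without PND8 replicate 2 or 3 there were 7 called. The H3 and H4 sums were lower at 12 weeks, with log2 ratios of -1.015 and -0.90, and H2B was higher, with 0.52, all without overlap, whereas H1 and H2A overlapped. Hist1h2bc rose from 14.1, 18.3, 14.1 and 17.0 CPM to 28.4, 43.0, 24.9 and 27.9 (log2 fold change 1.04, SE 0.18, edgeR adjusted p = 0.00293), and Hist2h2be rose by 0.85 (SE 0.20, edgeR adjusted p = 0.0124, but 0.0522 in a fit of all 8 groups). Hist1h1a, a linker histone known from cycling and embryonic cells, fell from 0.442 to 1.02 CPM to 0.0315 to 0.158 (-2.88, SE 0.50, edgeR adjusted p = 0.00307), and Hist1h2ap fell by 1.00 (SE 0.23, edgeR adjusted p = 0.011). Hist1h1c rose by 0.69 (SE 0.22, edgeR adjusted p = 0.0415), a call lost without any one of replicates 1, 2 and 4 at 12 weeks or 2, 3 and 4 at PND8 (edgeR adjusted p from 0.0823 to 0.107), in a fit of all 8 groups (0.0732) and with no filter (0.0649). All 37 S phase genes fell.

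Members known from the germ line were near the floor. Hist1h2ba, which encodes a testis H2B, was at 0.399, 0.472, 0.202 and 0.301 CPM in wild type and at 0.286, 0.576, 0.144 and 0.0703 in null at E18.5, and was listed at 0 in the other 21 libraries. Its head-to-head neighbour Hist1h2aa, a testis H2A, was at 0.0635 to 0.726 CPM at E18.5 and at most 0.117 elsewhere. Neither passed the filter on low counts in the comparison of genotypes at E18.5. Hist1h1t, the testis linker histone, did not exceed 0.330 CPM. The oocyte linker H1foo, outside the clusters, was at 0.342 ± 0.51 CPM at E18.5 and 22.0 ± 13.2 at PND8 in wild type.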

How the data were processed

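Total RNA of 29 ovary samples was sequenced in bulk, and a single table holds their expected counts per Ensembl gene. The authors made these estimated counts with STAR 2.5.2 and RSEM 1.3.0 after FastQC 0.11.5 and Trim Galore, per the submitters' processing notes. RSEM divides a read that fits several genes among them by estimated shares, so near-identical histone genes are not measured apart. Of the deposited values above 0, 31.4% were not whole. The genome build, gene annotation, library kit, read length and strand setting are not given in the sources used here.

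Samples were grouped by genotype and age from their labels. Gene symbols came from a table of Ensembl names, which matched 51633 of 51912 IDs. Transcript models and positions came from GENCODE M21 (GRCm38), and promoters from RefSeq (GRCm38.p6). The members and gene lists were chosen with earlier results of these data known.

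Counts were rounded and scaled by TMM (edgeR 4.0.16, limma 3.58.1, R 4.3.3); CPM shown use factors from all 29 libraries. Each comparison was fitted over all genes that passed filterByExpr (minimum count 10, minimum total 15), with edgeR's robust quasi-likelihood test and Benjamini-Hochberg adjustment over all genes tested. A gene was called at an adjusted p under 0.05. The interaction was fitted over both genotypes at E18.5 and PND8. The script of fits was tested on simulated data. Family sums have no test.

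Alternatives were RLE scaling, no filter, DESeq2 1.42.0, all 8 groups in 1 fit, a block for the replicate number, and dropping 1 library at a time. For sums they were RLE, library totals with and without haemoglobin genes, and filtered members. Leaving Hist1h2ao and Hist1h2ap out of sums was chosen after seeing the data.

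Named genes were Cdkn1b, the 4 members of each family with the highest level per kb, up to 3 called members each way per comparison with the largest change and a mean of at least 1 CPM, members known as germline or polyadenylated, and in each list up to 3 genes with the smallest p plus fixed regulators. Hist1h3b, Hist1h3c and Hist1h4n were named after their values were seen.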

Additional observations from a re-analysis of the deposited data

Results flagged for a closer look

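Among 176 sets of 4 replicates, 12 held a value whose gap to the nearest other was too large a part of their range by Dixon's critical value; chance gives about 1 in 20. At E13.5 in wild type, replicate 3 had an H1 sum of 34.99 CPM against 16.31 to 18.78 in the others, and Hist1h1b, an H1 gene, was at 6.089 CPM there against 3.462 to 3.811. Haemoglobin genes took 19.0% of that library's counts, whose part was not tested. In the same group, Hist2h3b was lowest in replicate 1, at 1.048 CPM against 1.431 to 1.475.

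At 12 weeks in wild type, replicate 2 stood apart 3 times. Its H2B sum was 69.18 CPM against 41.72 to 45.28, Hist3h2a was at 18.58 CPM against 10.15 to 10.7, and Hist1h4h was at 1.426 CPM against 0.6379 to 0.7512.

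The others were low values. Hist1h1a was at 0.4258 CPM in null replicate 3 at E18.5, against 0.3138 to 0.3302. In wild type, Hist1h2ai was at 0.2826 CPM in PND8 replicate 2 and at 0.4489 CPM in replicate 1 at 12 weeks. Hist1h2af was at 0.3289 CPM in E13.5 replicate 2 and at 0.365 CPM in E18.5 replicate 2. Hist1h2aa was at 0.03295 CPM in PND8 replicate 4. In these last 5 cases the gene was listed at 0 in the other 3 libraries.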

How the results depend on the processing

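Leaving Hist1h2ao and Hist1h2ap out of the sums turned the H2A log2 ratio of null to wild type at E18.5 from 0.74 to -0.12 and lowered that of all members to 0.17. From E18.5 to PND8 it gave -2.10 for wild-type H2A and -1.17 for all members in null. Library totals alone, and totals without haemoglobin genes, gave -1.16 and -1.19 for all members in wild type at that step. In null they gave -0.060 and -0.075 for H1, -1.93 and -1.95 for H2B, -0.33 and -0.35 for H3, -0.36 and -0.37 for H4, and -1.92 and -1.94 for all members.

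DESeq2 called 7 members between genotypes at E18.5, 1 at PND8, 22 between PND8 and 12 weeks (12 by edgeR) and 4 in the interaction, for which a fit of all 8 groups called 1. Over all genes between genotypes, edgeR and DESeq2 called 1 and 71 at E13.5, 814 and 1676 at E18.5, 62 and 741 at PND8, 2 and 298 at 12 weeks and 156 and 536 in the interaction. The fit of all 8 groups called 59 at E13.5, 0 at PND8, 68 at 12 weeks and 67 in the interaction, and the block called 8, 10 and 94 in the last 3. With no filter on low counts, edgeR called 258 at PND8 and 12 at 12 weeks. The causes were not tested.

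With each library left out in turn, members called numbered 3 to 6 between genotypes at E18.5, 6 to 12 from E13.5 to E18.5, 7 to 14 from PND8 to 12 weeks and 0 to 2 in the interaction. The lowest of the first came without null replicate 3. The 2 interaction calls came without E18.5 wild-type replicate 3, and 1 came without E18.5 wild-type replicate 1 or 2, PND8 wild-type replicate 1 or PND8 null replicate 4. From E18.5 to PND8 there were 24 to 31 in wild type and 28 to 32 in null, and 0 in each run between genotypes at the other 3 ages.

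Replicate numbers were not used to pair the samples in the main fits. In no comparison did every same-numbered pair correlate above 0.1 (0.0399 to 0.139 at E18.5). Differently numbered pairs were not compared, so this cannot exclude pairing. With the replicate number as a block, 5 members were called between genotypes at E18.5 and 0 at each other age, 10 from E13.5 to E18.5, 27 and 28 from E18.5 to PND8 in wild type and null, 10 from PND8 to 12 weeks and 0 in the interaction. Under the block the adjusted p of Cdkn1b at PND8 was 0.0850. Depth limits members near the floor of 3 counts.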
